A study of Mus musculus with 11 samples.

Results

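The gamma delta (γδ) and innate-like T cell programme was followed through 7 genes in sorted CD4-CD8- (DN) thymocytes of the mouse. These were the transcription factor genes Sox13, Sox4, Maf and Zbtb16, the Src family kinase gene Blk, and the neighbouring scavenger receptor genes Cd163l1 and 5830411N06Rik. The first 5 were selected by the fate they are tied to. The scavenger receptor pair was chosen by its lower counts in Arpp21-deficient DN3 cells, so its values in that comparison are given as a description, without a test. All 7 were found among the 35975 genes of the files, and all 7 were among the 13780 genes that passed the filter on low counts.

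Messenger RNA was sequenced in 11 libraries from 4 groups. DN2 cells came from wild-type mice (WT, n = 3) and from Arpp21 KO mice (n = 2), and DN3 cells from WT (n = 3) and Arpp21 KO mice (n = 3). The labels give the strain of all groups as C57BL/6J, and the age of the mice is not given for single libraries. In the KO line a germline deletion of exon 5 shifts the reading frame of the long Arpp21 isoform, while the short isoform can still be made. DN2 and DN3 cells were told apart at the sort by CD44 and CD25, and Cd44 fell from DN2 to DN3 in WT (log2 fold change -3.62, SE 0.40, adjusted p = 0.001165 by edgeR).

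Developing thymocytes choose between the αβ and γδ lineages at the DN2 and DN3 stages, when the receptor loci are rearranged. Strong receptor signals favour the γδ fate and act through Egr proteins and the inhibitor Id3. Sox13, Sox4 and Maf belong to the factors that programme interleukin-17-producing γδ T cells, Zbtb16 encodes PLZF, which drives innate-like T cells, and Blk is a kinase that these γδ cells need. Cd163l1 (also Scart1) and 5830411N06Rik (also Scart2) encode receptors with scavenger receptor cysteine-rich domains that are related to the WC1 co-receptors of γδ T cells in ruminants.

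Total estimated counts were between 14531762 and 63109504 per library, with a median of 21501831. In DN2 Arpp21 KO replicate 2, tested genes with an effective transcript length under 1000 nt were higher than in the other library of the group by a median of 1.94 on the log2 scale (1035 genes), and those of 3500 nt or longer were lower (median -1.92, 2821 genes). DN3 Arpp21 KO replicate 3 differed in the same way, with medians of 1.00 and -0.94 against the other libraries of its group. Both libraries stood apart in their correlation with the rest of their stage (Pearson r of 0.83 at most for the DN2 library and 0.93 for the DN3 library), and results that rest on them are given with and without them. The part of transcript length in the results below was not tested. Arpp21 itself had 183, 125 and 136 CPM (counts relative to each library's size) in DN2 WT, 86.9 and 28.5 in DN2 Arpp21 KO and, for DN3, 386, 336 and 312 (WT) and 335, 221 and 142 (KO). These sums hold reads from outside the deleted exon, so they do not check the deletion. All levels in CPM are on the trimmed mean of M values (TMM) scale. Genes are ranked by level only in TPM, which also divide by transcript length. Sums of marker genes and the plot of the scavenger receptor pair are in CPM.

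**Figure D1:**
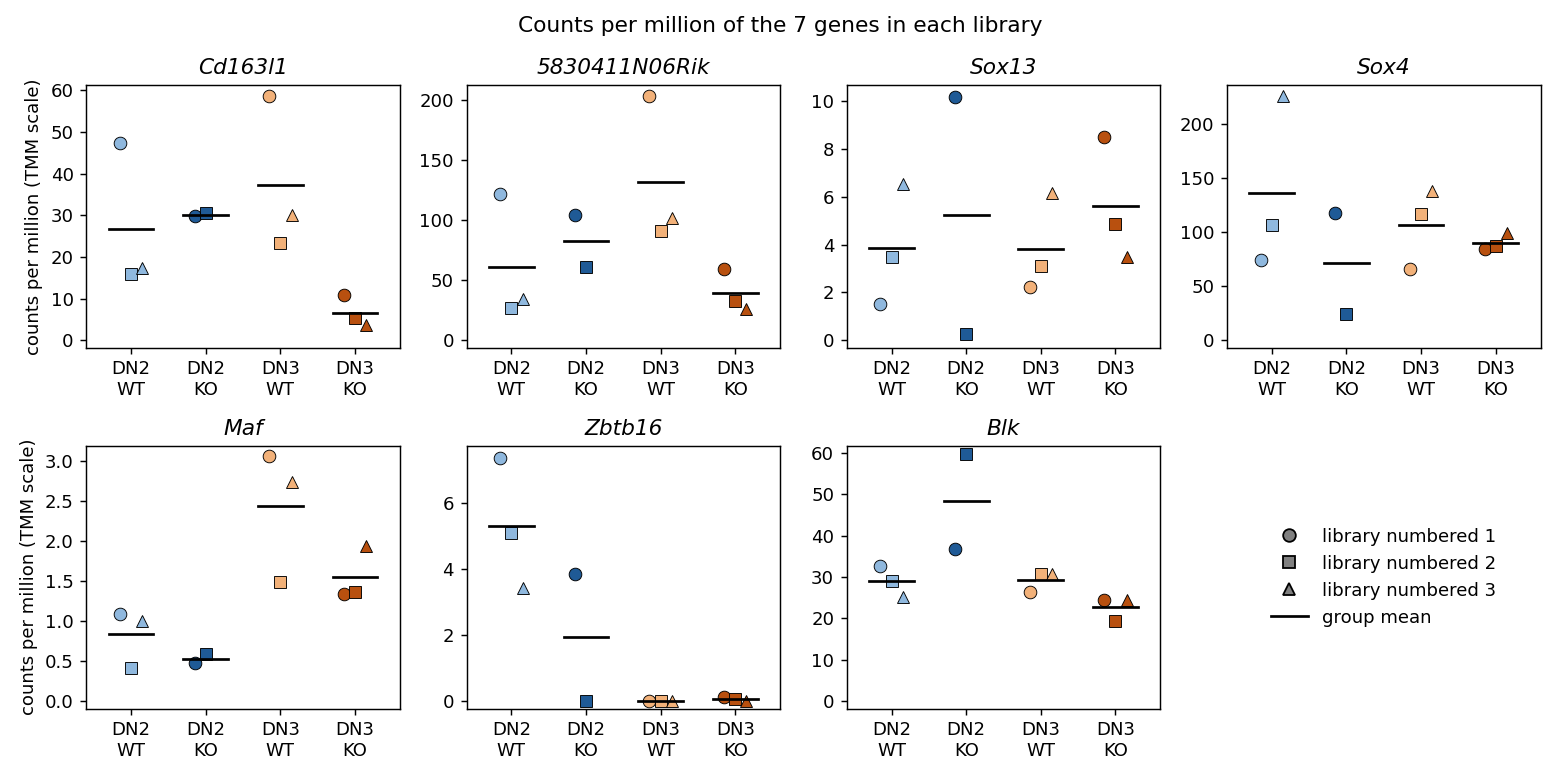
CPM of the 7 genes (vertical axis, linear) in each library, by group on the horizontal axis, with the marker shape giving the library number and the bar the group mean. Cd163l1 is lowest in the DN3 Arpp21 KO libraries. 5830411N06Rik is lower there than in DN3 WT but overlaps with DN2 WT. Zbtb16 is at or near 0 in the 6 DN3 libraries, and Sox13 and Sox4 spread widely within groups.

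Cd163l1 and 5830411N06Rik lie side by side on chromosome 7 (GRCm38), on the plus strand, at 140218267 to 140231145 and 140247284 to 140300736, with 16138 bases between them. The windows before their starts are shown because both genes were chosen by their lower counts in DN3 Arpp21 KO. Each is the 250 bases before a RefSeq start (GRCm38.p6, plus strand), at chr7:140218017-140218266 for Cd163l1 and chr7:140247131-140247380 for the start of the 5830411N06Rik transcript that took most of its counts. The RefSeq span of Cd163l1 begins further upstream, at 140197218, so its window lies inside that span. Capitals mark matches to the motifs searched.
Cd163l1: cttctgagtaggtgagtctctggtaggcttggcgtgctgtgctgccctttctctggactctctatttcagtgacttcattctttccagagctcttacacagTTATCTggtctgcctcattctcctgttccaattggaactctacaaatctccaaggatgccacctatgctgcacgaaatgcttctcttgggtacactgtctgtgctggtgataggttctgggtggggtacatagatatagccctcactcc
5830411N06Rik: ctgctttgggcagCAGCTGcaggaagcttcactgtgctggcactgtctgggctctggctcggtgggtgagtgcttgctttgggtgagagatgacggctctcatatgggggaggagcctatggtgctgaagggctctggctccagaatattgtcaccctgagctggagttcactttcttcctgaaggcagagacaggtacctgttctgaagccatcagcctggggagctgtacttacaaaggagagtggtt
Short motifs of 6 families of factors were searched on both strands, without overlap between motifs in these windows. The Cd163l1 window held 1 match, to the GATA motif AGATAA on the minus strand, 149 bases before the start. The 5830411N06Rik window held 1 match, to the E protein motif CAGNTG, 237 bases before the start. Of 32851 promoter windows of this length, 9.99% held the GATA motif and 44.8% the E protein motif. The Runx motif TGTGGT was held by 14% of all windows and had no match in either. The TCF and LEF motif CTTTGA was held by 13.8% of them and also had no match. The same was true of the Sox motif AACAAT, which 9.42% of the windows held, and of the ROR motif AGGTCA, which 14% held. The windows shared no motif of the set. RefSeq draws 5830411N06Rik from a pair of other starts as well. The window before the start at 140247301 held 1 ROR match, 238 bases before that start, and 2 E protein matches, the nearer 157 bases before it. The window before the start at 140247378 held the E protein match alone, 234 bases before it. Most Cd163l1 counts (62.8% over all libraries) were assigned to a transcript that starts at 140218511, downstream of the start used for the window, while 73.3% of the 5830411N06Rik counts were assigned to the transcript whose start was used.

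Cd163l1 was highest in DN3 WT and lowest in DN3 Arpp21 KO. The DN3 WT libraries had 58.5, 23.2 and 30.0 CPM, and the DN3 Arpp21 KO libraries had 10.9, 5.28 and 3.55 CPM. All 3 KO libraries were below all 3 WT libraries. The WT mean was 37.3 ± 18.7 CPM, the KO mean 6.57 ± 3.83 CPM (SD, n = 3 each). The log2 fold change of Cd163l1 between DN3 Arpp21 KO and DN3 WT was -2.50 (SE 0.59), a 5.64-fold lower level. Without DN3 Arpp21 KO replicate 3 and DN2 Arpp21 KO replicate 2, it was -2.20 (SE 0.61).

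5830411N06Rik had 204, 90.5 and 101.5 CPM in DN3 WT. In DN3 Arpp21 KO the libraries had 59.2, 32.4 and 25.7 CPM, again without overlap. The means were 132 ± 62.4 and 39.1 ± 17.8 CPM (SD, n = 3 each), and the log2 fold change was -1.75 (SE 0.62), a 3.37-fold lower level. Without the libraries that stand apart it was -1.52 (SE 0.66). Of all 13780 genes tested, 5.57% had every DN3 Arpp21 KO library below every DN3 WT library, and this comparison chose the pair. With edgeR only H2-Q6, an MHC class I gene that was chosen here after its values were seen, passed an adjusted p of 0.05 in DN3 (0.00726% of the genes, lower in KO), and 214 genes had an unadjusted p under 0.05.

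In DN2 cells, whose KO libraries the choice of the pair did not use, neither gene differed detectably between the genotypes. Cd163l1 had 47.4, 15.8 and 17.2 CPM in DN2 WT and 29.8 and 30.5 CPM in DN2 Arpp21 KO. The KO values lay within the WT range, and the log2 fold change was 0.17 (SE 0.62, adjusted p = 0.882). 5830411N06Rik had 121, 26.7 and 34.2 CPM in DN2 WT and 105 and 60.6 CPM in DN2 Arpp21 KO, and its log2 fold change was 0.44 (SE 0.66, adjusted p = 0.7132). Its KO values lay within the WT range too. On the TPM scale, with pseudocounts of 1 and 0.1, the DN2 differences turned negative, at -0.31 and -0.34 for Cd163l1 and at -0.0048 and -0.0102 for 5830411N06Rik. The change of the genotype difference from DN2 to DN3 was -2.67 (SE 0.83) for Cd163l1 and -2.20 (SE 0.89) for 5830411N06Rik on the log2 scale, values that contain the DN3 comparison that chose the genes.

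**Figure D2:**
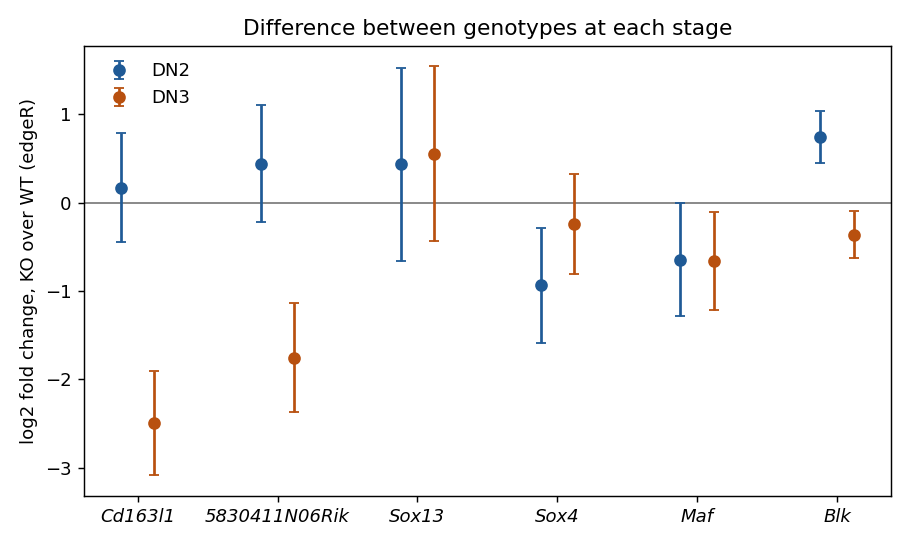
Log2 fold change of Arpp21 KO over WT (vertical axis, edgeR, bars are 1 SE) for 6 of the genes on the horizontal axis, in DN2 and DN3. Cd163l1 and 5830411N06Rik, chosen by the DN3 difference, lie at -2.50 and -1.75 in DN3 and near 0 in DN2, and Blk lies above 0 in DN2 and below it in DN3. Zbtb16 is left out because its DN3 libraries are at or near 0.

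In WT the pair was higher in DN3 than in DN2 on average, with overlapping libraries. The log2 fold change was 0.48 (SE 0.55, adjusted p = 0.9319) for Cd163l1 and 1.12 (SE 0.61, adjusted p = 0.5118) for 5830411N06Rik. These values share the DN3 WT libraries with the comparison that chose the pair. The libraries numbered 1 held the highest 5830411N06Rik level in all 4 groups and the highest Cd163l1 level in 3 of 4. Set against the WT library of the same number, the DN3 KO level of Cd163l1 was 5.38-, 4.40- and 8.46-fold lower, and that of 5830411N06Rik was 3.44-, 2.79- and 3.95-fold lower. The labels do not say that a number marks a shared litter or day.

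The levels of the pair followed each other over the 11 libraries, with a Pearson r of 0.839 on log2 CPM, given as a description since the libraries share stage, genotype and depth. Both genes were also chosen by their lower DN3 Arpp21 KO values, which by itself can raise this r. Per length, 5830411N06Rik was the more abundant in each library. The ratio of its TPM to that of Cd163l1 was 1.89 to 3.06 in DN2 WT, 2.20 and 4.09 in DN2 Arpp21 KO, 3.90 to 4.54 in DN3 WT and 6.27 to 8.52 in DN3 Arpp21 KO. The DN3 KO ratios lay above all others, so Cd163l1 was lower by more than its neighbour in those libraries. No stretch of 31 bases was shared between transcripts of the pair, nor with transcripts of any other gene that the files count. Within Cd163l1, the transcript Cd163l1-203 took 15.5% of the counts in DN3 WT and 2.78% in DN3 Arpp21 KO, and Cd163l1-204 took 57.7% and 76.0%. These shares pool the libraries of a group, and the DN3 KO libraries had only 253, 97 and 44 Cd163l1 counts. Both transcripts cover nearly the same span, so their reads may be split with uncertainty.

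**Figure D3:**
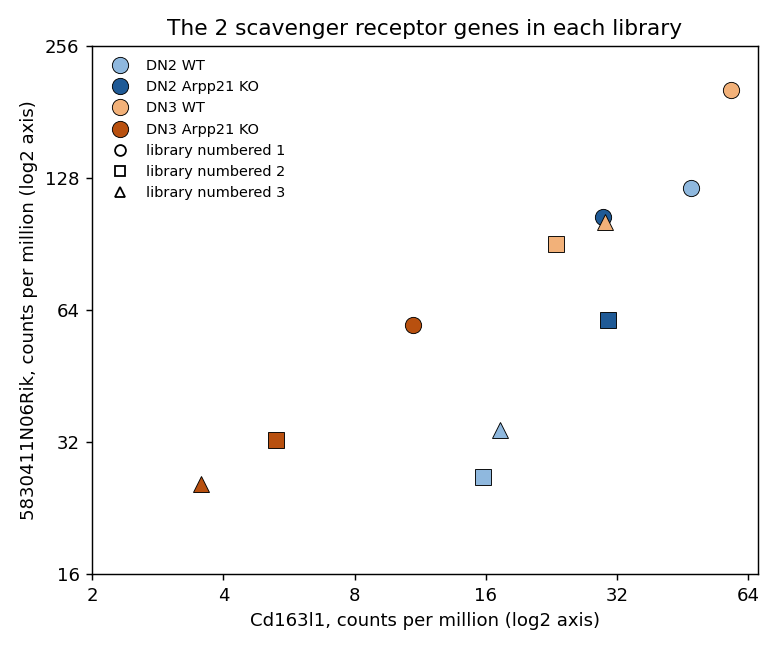
CPM of Cd163l1 (horizontal axis) and 5830411N06Rik (vertical axis) in each of the 11 libraries, both on log2 axes, with colour for the group and shape for the library number. The DN3 Arpp21 KO libraries lie at 3.55 to 10.9 CPM of Cd163l1, to the left of all others, and 5830411N06Rik is in general higher in libraries with more Cd163l1. Both genes were chosen by the DN3 difference.

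Of the 5 nearest annotated genes on each side of the pair, most were olfactory receptor genes with little or no signal. Mtg1, a mitochondrial GTPase gene on the left, had 25.9, 24.9 and 24.8 CPM in DN3 WT, against 23.8, 30.1 and 40.4 CPM in DN3 Arpp21 KO (log2 fold change 0.32, SE 0.37, adjusted p = 1). Olfr524, the gene next to Cd163l1 on its left (140198499 to 140205964, minus strand), was counted in DN3 WT at 14.1, 3.41 and 6.99 CPM and in DN3 Arpp21 KO at 2.19, 1.58 and 0.48 CPM. Its log2 fold change of -2.50 (SE 1.03, unadjusted p = 0.03585, adjusted p = 1) did not pass the test. In DN2 it stood at 13.6, 4.14 and 9.16 CPM for WT, against 4.40 and 0.16 CPM for KO. RefSeq draws Cd163l1 from 140197218, so that Olfr524 lies inside it on the opposite strand. The counting is not stated to use strand, so reads of Olfr524 and of an upstream part of Cd163l1 cannot be told apart. The 5 genes to the right of 5830411N06Rik stayed at or below 0.37 CPM in each library.

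Of 15 further genes with scavenger receptor cysteine-rich domains or scavenger receptor function, 7 were tested and none passed the test in any of the 4 comparisons. Their median log2 fold change between DN3 KO and DN3 WT was -0.29, beside -0.005 over all genes tested. In 3 of the 7 (Cd5, Cd6 and Lgals3bp) every DN3 KO library was below every DN3 WT library, and in none above. Over all genes tested the shares were 5.57% and 4.97%. Lgals3bp had 267 ± 17.1 CPM in DN3 WT, against 175 ± 57.2 CPM in DN3 Arpp21 KO. Cd163, the haemoglobin scavenger receptor, had a mean of 9.25 ± 0.81 CPM in DN3 WT, against 7.54 ± 1.71 CPM in DN3 Arpp21 KO (SD, n = 3 each). Cd5 and Cd6, lymphocyte members of the family that damp receptor signals, had 21.4 ± 1.18 and 55.2 ± 9.62 CPM in DN3 WT, against 13.8 ± 5.61 and 39.0 ± 7.96 CPM in DN3 Arpp21 KO.

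Sox13, a factor of γδ precursors (chromosome 1, 133382303 to 133424377, minus strand), was low at both stages. DN2 WT had 1.52, 3.499 and 6.52 CPM, DN2 Arpp21 KO 10.2 and 0.27, DN3 WT 2.24, 3.11 and 6.15, and DN3 Arpp21 KO 8.51, 4.85 and 3.47. The groups overlapped throughout, and the DN2 KO libraries held the highest and the lowest value of all. Its log2 fold changes were 0.55 (SE 0.99) between the genotypes in DN3, 0.44 (SE 1.09) in DN2 and -0.01 (SE 0.99) between the stages in WT, with adjusted p from 0.8285 to 1. The low DN2 value came from DN2 Arpp21 KO replicate 2, where Sox13 lay 3.80 below the other KO library on the log2 scale. Sox13 had a mean effective length of 3200 nt, and genes of 2000 to 3500 nt had a median of -0.42 in that library. The part of length in the Sox13 value was not tested. Without that library and DN3 Arpp21 KO replicate 3, the DN2 difference became 1.42 (SE 0.75). The full-length transcript Sox13-205 took 36.1% of Sox13 counts in DN2 WT and 70.5% in DN3 WT. These shares rest on 35 to 170 Sox13 counts per WT library.

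Sox4, which acts with Sox13 in γδ precursors and is also broadly used in immature lymphocytes (chromosome 13, 28948919 to 28953713, minus strand), was among the most abundant of the 7 in TPM. It had 74.3, 107 and 226 CPM in DN2 WT, 118 and 24.4 in DN2 Arpp21 KO, 65.4, 117 and 138 in DN3 WT, against 83.8, 86.8 and 99.4 in DN3 Arpp21 KO. The DN3 groups overlapped, and the lowest value of all came from DN2 Arpp21 KO replicate 2. Its log2 fold change was -0.24 (SE 0.57, adjusted p = 1) between the DN3 genotypes. In DN2 it was -0.93 (SE 0.65, adjusted p = 0.4993) and shrank to -0.19 (SE 0.57) without the libraries that stand apart. A long noncoding RNA gene, Gm26735 (28943048 to 28951671, plus strand), overlaps Sox4 on the opposite strand, was not analysed here and could add reads to Sox4.

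Maf, a factor of interleukin-17-producing γδ T cells (chromosome 8, 115682942 to 115707794, minus strand), was the gene of the set whose DN3 WT libraries were all above its DN2 WT libraries. It had 1.09, 0.41 and 1.00 CPM in DN2 WT and 3.06, 1.49 and 2.74 CPM in DN3 WT. This held for 17.5% of all genes tested. The log2 fold change of 1.54 (SE 0.56, unadjusted p = 0.02066) did not pass the test (adjusted p = 0.2209). With 9 to 67 counts behind these values, the level was low. DN2 Arpp21 KO had 0.47 and 0.59 CPM, and DN3 Arpp21 KO had 1.33, 1.36 and 1.94 CPM. The KO was lower than WT on average at both stages, by log2 fold changes of -0.64 (SE 0.64, adjusted p = 0.6025) in DN2 and -0.66 (SE 0.55, adjusted p = 1) in DN3, and the groups overlapped in both. The antisense gene Gm15655 overlaps Maf and was not analysed here.

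Zbtb16 (chromosome 9, 48654297 to 48836222, minus strand) was counted in DN2 and almost not in DN3. DN2 WT had 7.36, 5.09 and 3.41 CPM, from 89 to 169 counts. All 3 DN3 WT libraries had a count of 0, which allows up to 0.137 CPM at 3 counts in the shallowest of them. Set against the floor of 3 counts per library (mean 0.132 CPM), the DN2 WT mean of 5.29 ± 1.98 CPM (SD, n = 3) was at least 39.9-fold higher as a ratio of means. The lowest DN2 WT library was 24.9-fold above the highest DN3 WT floor. Of all genes tested, 17.3% had each DN3 WT library below each DN2 WT library. Zbtb16 passed the filter on low counts only through DN2, so a stage difference was built into its entry, and its adjusted p between the stages in WT was 0.05972 by edgeR, with no bound taken from that fit. DN3 Arpp21 KO had 3, 1 and 0 counts, at the floor like DN3 WT, so no fold was formed. DN2 Arpp21 KO replicate 1 had 3.85 CPM and replicate 2 had a count of 0 at the greatest depth of all libraries (63109504 counts, floor 0.0802 CPM). The genotype difference in DN2 was -1.46 (SE 1.57, adjusted p = 0.6283) and became -0.43 (SE 0.71) without the libraries that stand apart.

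Blk, a Src family kinase of B cells and of interleukin-17-producing γδ T cells (chromosome 14, 63372836 to 63417037, minus strand), had the smallest SD relative to its mean among the genes counted in both WT groups. It had 32.6, 29.1 and 25.03 CPM in DN2 WT and 26.4, 30.6 and 30.6 CPM in DN3 WT, with a log2 fold change between the stages of 0.02 (SE 0.27, adjusted p = 1). DN3 Arpp21 KO had 24.4, 19.4 and 24.4 CPM, each below the lowest WT library. DN2 Arpp21 KO had 36.8 and 59.7 CPM, each above the highest WT library. Non-overlap of this kind was found for 5.57% of all genes tested in DN3 (lower) and 7.52% in DN2 (higher). Both together, as in Blk, were found for 0.276% of all genes, and the opposite pair of directions for 0.181%. The log2 fold change was -0.36 (SE 0.27, adjusted p = 1) in DN3 and 0.74 (SE 0.29, unadjusted p = 0.0297, adjusted p = 0.336) in DN2, and neither passed the test. The change of the genotype difference between the stages was -1.10 (SE 0.40, unadjusted p = 0.01925, adjusted p = 0.9644). The DN2 difference depended on the scale and on 1 library. In TPM, DN2 Arpp21 KO had 23.7 and 13.6 against 21.9, 17.0 and 15.5 in DN2 WT, which overlapped, and without the libraries that stand apart the log2 fold change in CPM was 0.37 (SE 0.23). In DN3 the TPM values kept the groups apart, at 17.2, 12.9 and 9.92 in KO and 17.8, 20.5 and 21.5 in WT. Of the B cell markers in the lists, Pax5 was at 0 in all 11 libraries, and 6 markers summed to 38.8 to 51.8 CPM in DN2 WT, 40.0 to 65.4 in DN2 Arpp21 KO, 62.0 to 66.7 in DN3 WT and 46.6 to 73.1 in DN3 Arpp21 KO. Nearly all of it was Cd79b, at 64.0 ± 2.58 CPM in DN3 WT.

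Per length, the order of the 7 genes in DN3 WT was 5830411N06Rik (71.6 ± 33.3 TPM), Sox4 (33.8 ± 12.4), Blk (19.9 ± 1.90), Cd163l1 (17.4 ± 8.59), Sox13 (1.83 ± 0.93), Maf (0.67 ± 0.29) and Zbtb16 (0). The values of Sox4, Blk and Cd163l1 overlapped with their neighbours in that order, and 5830411N06Rik was above Sox4 in each library. In DN3 Arpp21 KO the order began with Sox4 (24.3 ± 4.73 TPM), followed by 5830411N06Rik (19.8 ± 12.0) and Blk (13.4 ± 3.68), whose values overlapped. Cd163l1 had 2.97 ± 2.10 TPM there, within the range of Sox13 (2.58 ± 1.80). In DN2 WT Sox4 (39.3 ± 22.8 TPM) and 5830411N06Rik (32.2 ± 30.5) overlapped at the top, and Zbtb16 (2.13 ± 1.03) overlapped with Sox13 (1.77 ± 1.15).

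None of the 7 passed the edgeR test between the stages in WT, where 1.86% of all genes tested were called higher in DN3 and 2.22% lower. Nor did any of them have all DN3 KO libraries above DN3 WT (4.97% of all genes) or all DN2 KO libraries below DN2 WT (8.28%). None passed the test in DN2, where no gene did (0% called; 2020 genes at an unadjusted p under 0.05, 38 genes with DESeq2). The genes whose levels over the 11 libraries were most like those of each member, among 11447 genes with a mean of at least 1 CPM, are given as a description by Pearson r on log2 CPM. They were Frmd8 (0.915), the γ joining segment Trgj4 (0.908) and Tedc1 (0.892) for Cd163l1, and Epha2 (0.878), Shisa5 (0.85) and Zfp579 (0.847) for 5830411N06Rik. For Sox4 they were Rnf111 (0.98), Lrrc58 (0.973) and Ppp2r5e (0.964), and for Sox13 they were Atn1 (0.91), Extl2 (0.909) and Mlxip (0.907). Blk was closest to Xkr8 (0.937), Trim35 (0.927) and Tbc1d10c (0.919), Maf to Drc1 (0.922), Card9 (0.916) and Tmem91 (0.916), and Zbtb16 to Socs2 (0.97), B3gnt5 (0.967) and Phactr2 (0.965). Between members, r was 0.797 for Sox13 and Sox4 and -0.631 for Maf and Zbtb16. The libraries share stage and length bias, which such values also follow.

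The constant segments of the γδ receptor were abundant at both stages. Trgc1 averaged 1693 ± 123 CPM in DN2 WT and 633 ± 40.9 CPM in DN3 WT (SD, n = 3 each), and its log2 fold change of -1.42 (SE 0.35) did not pass the threshold (adjusted p = 0.05322). Trgc4 had 340, 283 and 273 CPM in DN3 WT, against 230, 175 and 169 CPM in DN3 Arpp21 KO. All KO values were lower, by a log2 difference of -0.64 (SE 0.22, adjusted p = 1, unadjusted p = 0.01631). In DN2 Trgc4 had 238, 219 and 272 CPM in WT, against 336 and 322 CPM in KO, both KO values higher on this scale (log2 fold change 0.43, SE 0.25, adjusted p = 0.414). In TPM the same KO libraries had 563 and 191, against 409, 331 and 436 in WT, so DN2 Arpp21 KO replicate 2 was then below every WT library. Trdc, the δ constant segment, differed by -0.18 (SE 0.23) between the DN3 genotypes and by 0.37 (SE 0.23) between the WT stages, with adjusted p of 1 and 0.6117. All 4 segments were below WT on average in DN3 Arpp21 KO, with a median log2 fold change of -0.35, and none passed the test. In CPM, Trgc2 and Trgc4 had every DN3 KO library below every DN3 WT library, beside 5.57% of all genes tested. Trgc1 and Trgc4 had both DN2 KO libraries above every DN2 WT library, beside 7.52%. No segment went the other way at either stage without overlap. The Trgc segments resemble each other, so their reads may be split with uncertainty.

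Of 23 further transcription factors of the γδ programme, 21 were tested. From DN2 to DN3 in WT, 3 of them rose and none fell past the threshold, beside 1.86% of all genes tested called higher and 2.22% called lower. Without the libraries that stand apart, 10 of the 21 were called, beside 2216 of the 13759 genes tested with and without them. Id3, the inhibitor of E proteins induced by receptor signals, rose from 12.1 ± 1.31 to 75.2 ± 2.96 CPM (log2 fold change 2.64, SE 0.41, adjusted p = 0.005504). Egr1, an immediate target of receptor signals, rose from 0.60 ± 0.59 to 37.4 ± 11.6 CPM (log2 fold change 5.93, SE 1.14, adjusted p = 0.0163). Lef1, an HMG factor of Wnt and T lineage programmes, rose from 15.9 ± 1.71 to 565 ± 22.0 CPM (log2 fold change 5.15, SE 0.66, adjusted p = 0.002225). The median of the list was 0.48, beside 0.01 over all genes tested.

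Between DN3 Arpp21 KO and DN3 WT, none of these 21 factors passed the test, with a median log2 fold change of -0.49 (-0.42 without the libraries that stand apart) and 15 of 21 below 0. Every KO library was below every WT library in 6 of them and above in none, beside 5.57% and 4.97% of all genes tested. Sox5, a paralog of Sox13, had 0.91, 0.85 and 1.55 CPM in DN3 WT, against 0.39, 0.05 and 0 CPM in DN3 Arpp21 KO. From at most 35 counts per library, its log2 fold change was -2.72 (SE 1.05, unadjusted p = 0.02681, adjusted p = 1). Tox2, an HMG factor, had 4.97, 4.35 and 5.31 CPM in DN3 WT, against 1.55, 2.29 and 0.56 CPM in DN3 Arpp21 KO (log2 fold change -1.72, SE 0.75, unadjusted p = 0.04564, adjusted p = 1). The KO libraries were below the WT libraries for both genes, and the lowest value of each came from DN3 Arpp21 KO replicate 3, which stands apart. In DN2 none of the 21 passed, with a median of -0.69 beside -0.057 over all genes tested. Without the libraries that stand apart it was -0.11, beside -0.006 over all genes.

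Of 27 surface and signalling genes of γδ cells, 21 were tested, and 4 rose and 3 fell from DN2 to DN3 in WT, where 1.86% and 2.22% of all genes tested did. Without the libraries that stand apart, 12 of the 21 were called, beside 2216 of the 13759 genes tested with and without them. Those that rose were Cd28 (3.72, SE 0.28), a co-stimulatory receptor, Sh2d1a (4.33, SE 0.50), the SAP adaptor, Slamf6 (1.61, SE 0.29), a receptor that signals through SAP, and Ccr9 (4.28, SE 0.99), a thymic homing receptor, in log2 fold change. Those that fell were Cd44 (-3.62, SE 0.40), Il1r1 (-3.79, SE 0.71), the interleukin-1 receptor, and Cd160 (-1.85, SE 0.40). Their adjusted p lay between 0.0001332 and 0.03946.

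Between the genotypes none of these 21 genes passed the test at either stage. In DN3, 6 of them had every KO library below every WT library and 3 had every KO library above, beside 5.57% and 4.97% of all genes tested. Il1r1 had 1.37, 1.19 and 0.75 CPM in DN3 WT, against 0.26, 0 and 0.08 CPM in DN3 Arpp21 KO, from at most 30 counts (log2 fold change -3.13, SE 0.79, unadjusted p = 0.002666, adjusted p = 1). Txk, a Tec family kinase, had 10.7, 6.56 and 7.69 CPM in DN3 WT, against 2.92, 2.99 and 6.13 CPM in DN3 Arpp21 KO (log2 fold change -1.05, SE 0.45, unadjusted p = 0.03942, adjusted p = 1). For both genes the KO values lay below the WT values. The 3 genes with higher KO values were Sh2d1a, Slamf1, a receptor of the same adaptor, and Cd28. Sh2d1a had 114, 110 and 83.3 CPM in DN3 WT, against 130, 141 and 264 CPM in DN3 Arpp21 KO (log2 fold change 0.80, SE 0.43, adjusted p = 1). Slamf1 had 5.89, 2.86 and 4.07 CPM in WT, against 9.80, 7.41 and 6.29 CPM in KO, and Cd28 had 128, 117 and 121 CPM against 141, 147 and 139 CPM. In TPM the groups of Slamf1 and Cd28 overlapped, since DN3 Arpp21 KO replicate 3 had 2.12 and 30.9 TPM there, and those of Sh2d1a stayed apart. The median over the list was -0.16 in DN3 and -0.60 in DN2, and -0.10 at both stages without the libraries that stand apart. In bulk samples, fewer cells of a type and less RNA per cell cannot be told apart, for these genes as for the scavenger receptor pair.

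**Figure D4:**
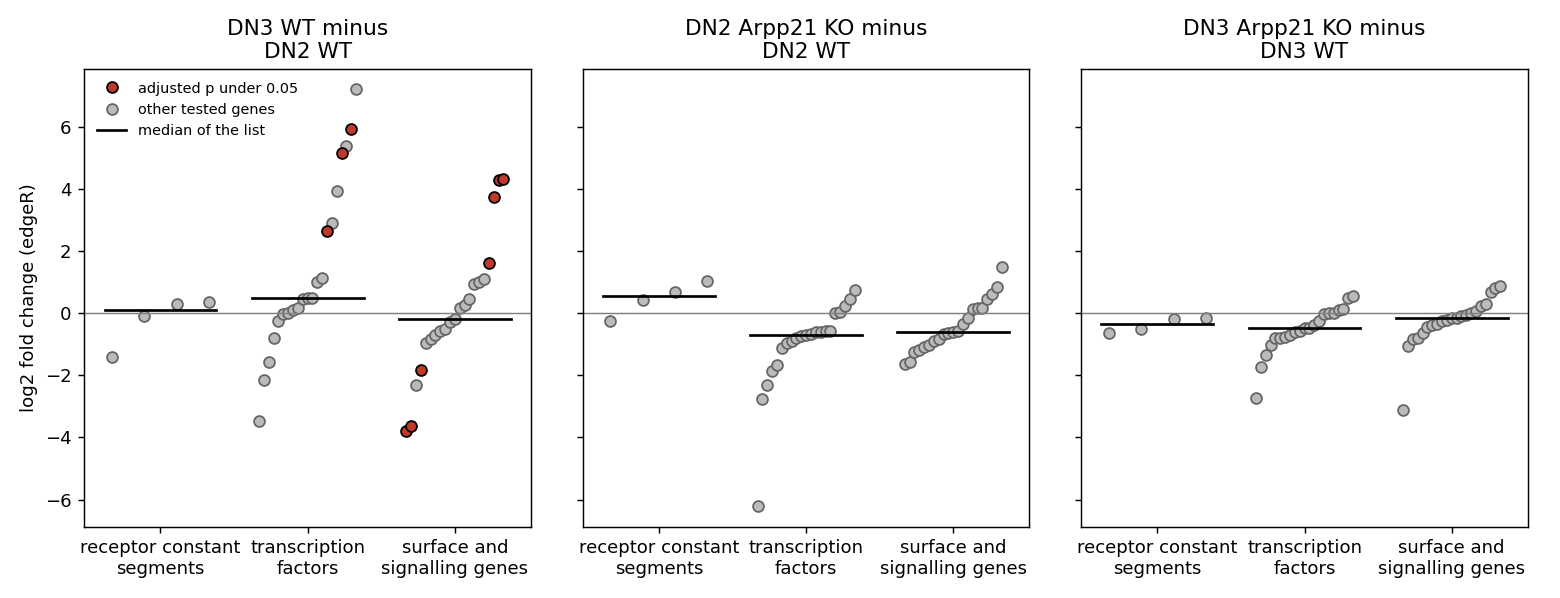
Log2 fold change (vertical axis, edgeR) of each tested gene of the 3 lists on the horizontal axis, sorted within a list, for 3 comparisons, with the list median as a bar and genes at an adjusted p under 0.05 in red. Called genes are found between the WT stages, 3 of 21 transcription factors and 7 of 21 surface and signalling genes, and none between the genotypes.

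Markers of other cell types were summed per library. The 8 natural killer and innate lymphoid markers summed to 97.2 to 132 CPM in DN3 WT and 75.03 to 153 CPM in DN3 Arpp21 KO, with Gzmb and Areg at 0 in all 6 libraries. The same list summed to 309 to 343 CPM in DN2 WT and to 344 and 1669 CPM in DN2 Arpp21 KO, the higher value in DN2 Arpp21 KO replicate 2, which also had the highest Blk and Trgc1 in CPM, but not in TPM. Nkg7, a gene of cytotoxic granules, made up nearly all of this sum, with 1652 CPM in that library and 304 to 339 CPM in the other DN2 libraries. Of the 8 markers, 5 were under 1 CPM in every DN2 WT library and 6 in both DN2 Arpp21 KO libraries. The 7 myeloid markers summed to 29.9 to 36.8 CPM in DN3 WT and 34.7 to 47.6 CPM in DN3 Arpp21 KO. Markers of the DN3 stage itself summed to 4273 to 4819 CPM in DN3 WT and 2754 to 4442 CPM in DN3 Arpp21 KO (7 genes). Of these 7 genes, 4 were lower and 3 higher in KO by log2 fold change. Rag1 averaged 915 CPM in DN3 WT and 328 CPM in DN3 Arpp21 KO. Rag2 (142 and 184 CPM) and Ptcra (398 and 507 CPM) were among those higher in KO. The median log2 fold change of the list was -0.16, and 0.16 without the libraries that stand apart. The part of all these markers in the difference of the scavenger receptor pair was not tested.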

How the data were processed

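RNA of sorted DN2 and DN3 thymocytes (stated purity above 97%) was made into SmartSeq V4 and Nextera libraries and sequenced as 150 bp read pairs. The authors pseudo-aligned trimmed reads with kallisto 0.46 to Ensembl transcripts (GRCm38) and deposited estimated counts, TPM and effective lengths per transcript. Here 116728 of 119414 transcripts (98.931 to 99.067% of the counts per library) were matched by identifier to GENCODE M21 genes, and the deposited expected counts were summed per gene and rounded. Genes were filtered with filterByExpr (minimum count 10, minimum total 15), scaled by TMM and tested with edgeR 4.0.16 (quasi-likelihood, two-sided, 4 groups, 11 libraries, Benjamini-Hochberg over 13780 genes, threshold 0.05), and standard errors are the fold change over the root of F. CPM correlations used log2(CPM + 0.5). DESeq2 1.42.0 and limma 3.58.1 served as alternatives. R was 4.3.3. Scripts were tested on simulated data. The effective length was used for length classes and, among the alternatives, for the fit with a transcript length offset.

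The members and gene lists were chosen with earlier results of these data known. Named genes were the members, every gene of the fixed lists, the 5 nearest genes on each side of the scavenger receptor pair, the 3 genes most like each member, and Arpp21. Genes named for another reason are marked. The labels do not say that replicates are separate animals, so p-values measure the spread between these samples. Counts cover counting error only. Lists of cells after beta selection, plasmacytoid dendritic cells and CD4+CD8+ cells were summed as well. They held 7, 5 and 6 genes, with median DN3 log2 fold changes between genotypes of -0.13, 0.02 and -0.09 (0.02, 0.01 and 0.17 without the libraries that stand apart, an alternative for the lists chosen after seeing the data), and 21 paralogs of the members (14 tested) had -0.17. No gene of these lists was called between genotypes.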

Additional observations from a re-analysis of the deposited data

Results flagged for a closer look

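Among the members and fixed lists, 3 genes had each KO library on one side of WT in DN3 and the other in DN2 (CPM). Of all genes tested, 0.276% were lower in DN3 Arpp21 KO and higher in DN2 Arpp21 KO in this way, as these 3 were, and 0.181% showed the opposite. Blk was lower in DN3 Arpp21 KO and higher in DN2 Arpp21 KO, and the difference between the stages was -1.10 on the log2 scale (SE 0.40, unadjusted p = 0.01925, adjusted p = 0.9644 by edgeR). In TPM the DN2 groups of Blk overlapped. Trgc4 had the same directions in CPM, with a difference of -1.08 (SE 0.33, unadjusted p = 0.008643, adjusted p = 0.9644). Cd27, a co-stimulatory receptor, had a difference of -0.40 (SE 0.30, unadjusted p = 0.2122, adjusted p = 0.9644). In TPM the DN2 groups of Trgc4 and Cd27 overlapped too, with 191 and 52.2 TPM in DN2 Arpp21 KO replicate 2, below every DN2 WT library (331 and 114 TPM at the lowest). The DN3 groups of Cd27 also overlapped in TPM, and those of Trgc4 did not. None of the 3 passed the test of the difference between the stages. Groups of 2 and 3 libraries were too small to test for a library far from the rest.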

How the results depend on the processing

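Results were recomputed under up to 22 alternatives, 11 of them leaving out 1 library each. The filter at 10 CPM removed Sox13, Maf and Zbtb16, the TPM fits did not hold Maf, and fits of 1 stage or genotype gave no difference between the stages. The DN3 difference of Cd163l1 stayed between -3.07 and -2.01 and that of 5830411N06Rik between -2.18 and -1.30 (log2) under all of them, with the lowest values without DN3 Arpp21 KO replicate 1 and the highest without DN3 WT replicate 1. Between the DN3 genotypes the count of genes called (1) became 16 with DESeq2, 0 with 1 stage alone, 2 with limma on log2(TPM + 0.1), 118 with voom and sample quality weights, and 5 without both libraries that stand apart, and it was 0 to 1 when 1 library was left out. The count of members called there (0) became 1 with DESeq2 and 1 with voom. The gene was Cd163l1 in both, which this comparison had chosen, so these counts are not a test of it. Between the DN2 genotypes the count of genes (0) became 38 with DESeq2 and 0 to 6777 when 1 library was left out, and that of members (0) became 0 to 4. The highest counts, 6777 genes and the members Blk, Sox13, Sox4 and Zbtb16, came without DN2 Arpp21 KO replicate 1, which leaves the library with few long transcripts as the only DN2 KO library, assumed to vary like the other groups. Between the WT stages the count of genes (562) became 1192 with DESeq2, 1946 with WT alone, 2326 with voom, 2226 without both libraries that stand apart and 243 to 1080 when 1 library was left out. Members called there (0) became 2 with DESeq2 (Maf and Zbtb16) and 1, Zbtb16, without the filter on low counts, with WT alone, with limma on either TPM scale, with voom and without both libraries that stand apart. Leaving out 1 library gave 0 to 1, with Zbtb16 called without either DN2 Arpp21 KO library. The entry of Zbtb16 had a stage difference built in, so its calls between the stages support nothing. For the difference between the stages, the count of genes (0) became 10 with DESeq2 and 0 to 3664 when 1 library was left out, and members 0 to 3 (Blk, Sox13 and Zbtb16), again without DN2 Arpp21 KO replicate 1. The causes of these shifts were not tested.

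None of the differences whose direction reversed had passed the test. In DN2 (KO minus WT), limma on log2(TPM + 1) and log2(TPM + 0.1) gave -0.0996 and -0.9426 for Sox13, -0.3106 and -0.3434 for Cd163l1, and -0.0048 and -0.0102 for 5830411N06Rik. Voom gave -1.5039 for Sox13. Leaving out 1 library gave -3.832 to 1.4255 for Sox13, -0.0649 to 0.8705 for Cd163l1 and -0.0132 to 1.4405 for 5830411N06Rik. Between the WT stages Sox13 became 0.0337 with WT alone, 0.0555 and 0.1079 on the TPM scales, 0.136 with voom and 0.0115 without both libraries that stand apart, and leaving out 1 library gave -0.5235 to 0.6081. The same ranges were -0.6407 to 0.2347 for Sox4, -0.0788 to 0.1114 for Blk and -0.0078 to 1.1741 for Cd163l1. For the difference between the stages, Maf became 0.2475 with the transcript length offset and -0.2697 to 0.288 when 1 library was left out. Sox13 and Sox4 became -0.6278 and -0.1431 without both libraries that stand apart, and -0.8864 to 4.3858 and -0.0737 to 2.241 when 1 library was left out.

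The replicate number was tried as a block. Deviations of same-numbered libraries correlated between -0.399 and 0.49. This range does not decide whether a number marks a shared animal, and the numbers were used as names. With the replicate block, 0 genes were called between the DN3 genotypes and 441 between the WT stages, and the DN3 differences were -2.55 (SE 0.39) for Cd163l1 and -1.74 (SE 0.32) for 5830411N06Rik. Maf and Zbtb16 are limited by depth, at 9 to 67 and 0 to 169 counts per library.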
